A study of Mus musculus with 10 samples.

Results

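The genes described here carry the symbols of proteins of the mitochondrial ribosome, Mrpl for the large subunit and Mrps for the small subunit. They were taken as every protein-coding row of the count table whose mouse symbol is Mrpl or Mrps followed by a number, which gave 78 of 30935 gene IDs, 49 for the large and 29 for the small subunit. No pseudogene had to be dropped, since 0 rows of the table carried the name of one. The counts came from RNA-seq of midbrains of mouse embryos at embryonic day 14.5, with 5 wild-type embryos (Rbfox1 +/+) and 5 homozygous for a deletion named HAR.321 in the Rbfox1 locus (Rbfox1 ΔHAR.321/ΔHAR.321), described as independent biological samples. HARs, human accelerated regions, are conserved sequences that changed quickly in the human lineage, and Rbfox1 encodes a neuronal splicing regulator. The libraries are wild-type 1, 2, 4, 5 and 6 and deletion 2, 3, 4, 5 and 6, and values per library are given in that order. The labels name no strain, litter, sex or dissection day.

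The mitochondrial ribosome translates the few proteins encoded by mitochondrial DNA, which are core subunits of the respiratory chain and ATP synthase. Its RNAs are made inside the mitochondrion, whereas all of its proteins are encoded in the nucleus, translated in the cytosol and imported. Part of these proteins descend from bacterial ribosomal proteins and the others are specific to mitochondria, where they form much of the outer shell and of the central protuberance, the crest of the large subunit that faces the small one.

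Many nuclear genes for mitochondrial proteins are known to carry short promoter motifs for NRF1, for ETS factors such as GABP, or for YY1. Of the 78 genes, 69 had a promoter in the RefSeq table for GRCm38.p6, from 250 bases before to 50 after the start. The motifs were searched as exact letters on both strands, as GCGCA, any base and GCGC for NRF1, CCGGAAG for ETS and AANATGGC for YY1, and none of the printed matches overlapped another. Windows from 130 bases before to 20 after the start follow, for 4 large and 2 small subunit genes that held a motif and were among the members with the smallest p of their subunit. Outside the printed stretch, the searched promoter of Mrpl51 also held a YY1 motif and that of Mrps21 an ETS motif. Mrps33, with an ETS motif in its searched promoter, is not printed. Capitals mark the motif, NRF1 and then ETS in Mrpl57, ETS in Mrpl51 and Mrpl34, NRF1 in Mrpl12 and Mrps21, and YY1 in Mrps11.
Mrpl57, chr14:57826109-57826258, plus strand: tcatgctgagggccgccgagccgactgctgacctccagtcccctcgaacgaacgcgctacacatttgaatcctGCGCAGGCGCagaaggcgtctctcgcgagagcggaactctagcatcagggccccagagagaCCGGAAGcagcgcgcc
Mrpl51, chr6:125192070-125192219, plus strand: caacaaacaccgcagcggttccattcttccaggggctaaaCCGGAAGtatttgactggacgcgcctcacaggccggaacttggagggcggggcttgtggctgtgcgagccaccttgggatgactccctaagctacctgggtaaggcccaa
Mrpl34, chr8:71464796-71464945, plus strand: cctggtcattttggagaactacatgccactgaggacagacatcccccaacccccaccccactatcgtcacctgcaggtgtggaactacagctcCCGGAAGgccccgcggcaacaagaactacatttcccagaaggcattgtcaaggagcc
Mrpl12, chr11:120484507-120484656, plus strand: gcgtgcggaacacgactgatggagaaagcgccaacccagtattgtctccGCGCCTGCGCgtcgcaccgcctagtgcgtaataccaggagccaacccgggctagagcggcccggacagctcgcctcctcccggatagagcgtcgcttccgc
Mrps21, chr3:95871495-95871644, minus strand: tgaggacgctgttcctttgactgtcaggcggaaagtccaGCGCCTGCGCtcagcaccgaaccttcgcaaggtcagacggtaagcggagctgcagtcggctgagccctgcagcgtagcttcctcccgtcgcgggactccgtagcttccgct
Mrps11, chr7:78783001-78783150, plus strand: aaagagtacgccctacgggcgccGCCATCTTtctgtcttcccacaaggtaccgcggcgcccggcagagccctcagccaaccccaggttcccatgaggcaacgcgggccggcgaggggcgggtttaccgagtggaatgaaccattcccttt

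An ETS motif was in 36.2% of the 69 promoters, against 1907 of the 11207 promoters of protein-coding genes tested for expression here. The YY1 motif was in 30.4% against 8.16%, and the NRF1 motif in 18.8% against 9.93%. At least 1 of these motifs was in 66.7% of the members' promoters and in 30.6% of those of the tested protein-coding genes. The Sp1-type motif GGGCGGGG was in 23.2% against 33.5%, with 16.3% of large and 34.6% of small subunit promoters, and CCAAT was about as frequent, at 39.1% against 38.6%. By subunit, NRF1 letters were in 10 of 43 large and 3 of 26 small subunit promoters, ETS letters in 14 of 43 and 11 of 26, and YY1 letters in 14 of 43 and 7 of 26, with no test of a difference. A match of letters describes the window and does not show that a factor binds there.

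The members were also often placed head to head with another gene. In the GENCODE M21 annotation (GRCm38), 18 of the 78, or 23.1%, had a protein-coding neighbour that starts on the opposite strand within 1000 bases, against 9.58% of 13910 tested protein-coding genes. Mrpl57 starts 49 bases from Ska3, a gene of the kinetochore, and Mrpl51 starts 100 bases from Ncapd2, which encodes a condensin subunit. Mrpl49 starts 59 bases from Fau, which encodes a cytosolic ribosomal protein, and Mrps12 starts 172 bases from Sars2, the mitochondrial seryl-tRNA synthetase. Mrpl46 and Mrps11, which encode one protein of each subunit, overlap at their 5′ ends on opposite strands.

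Library totals ran from 16246892 to 20255728 counts, and a tested member had 121 to 1636 counts in a library. Midbrain markers such as En1, En2 and Otx2 summed to 556 to 626 CPM (counts scaled to the library total, with TMM factors) in the wild-type and 519 to 590 in the deletion libraries, whereas hindbrain Hox genes and Egr2 summed to 0 to 0.369 and 0.0533 to 0.894. Neuronal markers summed to 7786 to 8106 and 7297 to 8480, and progenitor markers to 1050 to 1384 and 981 to 1403. Of the 8 progenitor markers 7 had a log2 fold change below 0, with a median of -0.13, close to the median of -0.125 over the genes described here; its part in their values was not tested. Red blood cell genes had all 6 tested members at a higher mean in the deletion group, with sums of 1604 to 2430 and 2113 to 2846. In these lists and those for microglia, endothelium and meninges, 0 genes passed the test. Rbfox1 itself had a log2 fold change of 0.11 and an adjusted p of 0.606 in edgeR's quasi-likelihood test; a count over the whole gene does not check a deletion that is defined by an element of its locus.

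All members but Mrpl53 were measured. Mrpl53, a mitochondria-specific protein of the large subunit, was at 0 counts in all 10 libraries, and 87.97% of its exonic bases also lie in an overlapping annotated gene, so that reads from it could go uncounted. A count of 0 allows up to 3 counts in a library. The 48 other large subunit genes had wild-type levels of 4.21 to 91.1 CPM per kb of the longest transcript, with a median of 16.2, and the 29 small subunit genes had 3.67 to 62.5, with a median of 13.4. On this length the order was led by Mrpl34, Mrpl52 and Mrpl20 in the large subunit and by Mrps21, Mrps15 and Mrps24 in the small. At the low end were Mrpl17 and Mrpl47, and Mrps25 and Mrps16. Of these, Mrps25 shares 69.8% and Mrpl47 24.2% of exonic bases with other genes, which may have changed their counts.

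Levels per length spanned 21.6-fold in the large and 17.1-fold in the small subunit, although most of the proteins are known to be present in equal number in the particle. Per kb of the RefSeq-matched mRNA, which is shorter for a number of members, the medians were 19.8 and 18.3, and Mrpl52 had the highest level at 114. The order changed too. Mrpl30 at 54.7, Mrpl42 at 54.6 and Mrpl23 at 50.1 then stood above Mrpl20 at 47.2. In the small subunit Mrps17 at 56.1 stood above Mrps15 at 41.6 and Mrps24 at 34.0. Mrpl34, the counterpart of a small bacterial large subunit protein, was at 91.1 per kb on either length. Mrpl12 forms the flexible stalk that recruits translation factors and is present in several copies per ribosome. It was at 55.6 CPM before division by length, below Mrpl3 at 73.7 and Mrps5 at 80.6. Per kb of the longest transcript the order was the opposite, with Mrpl12 at 42.2, Mrpl3 at 18.6 and Mrps5 at 18.0. The median coefficient of variation over the 5 wild-type libraries was 9.22% for large and 7.83% for small subunit genes, so that neighbours in this order often did not differ beyond their spread.

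**Figure D1:**
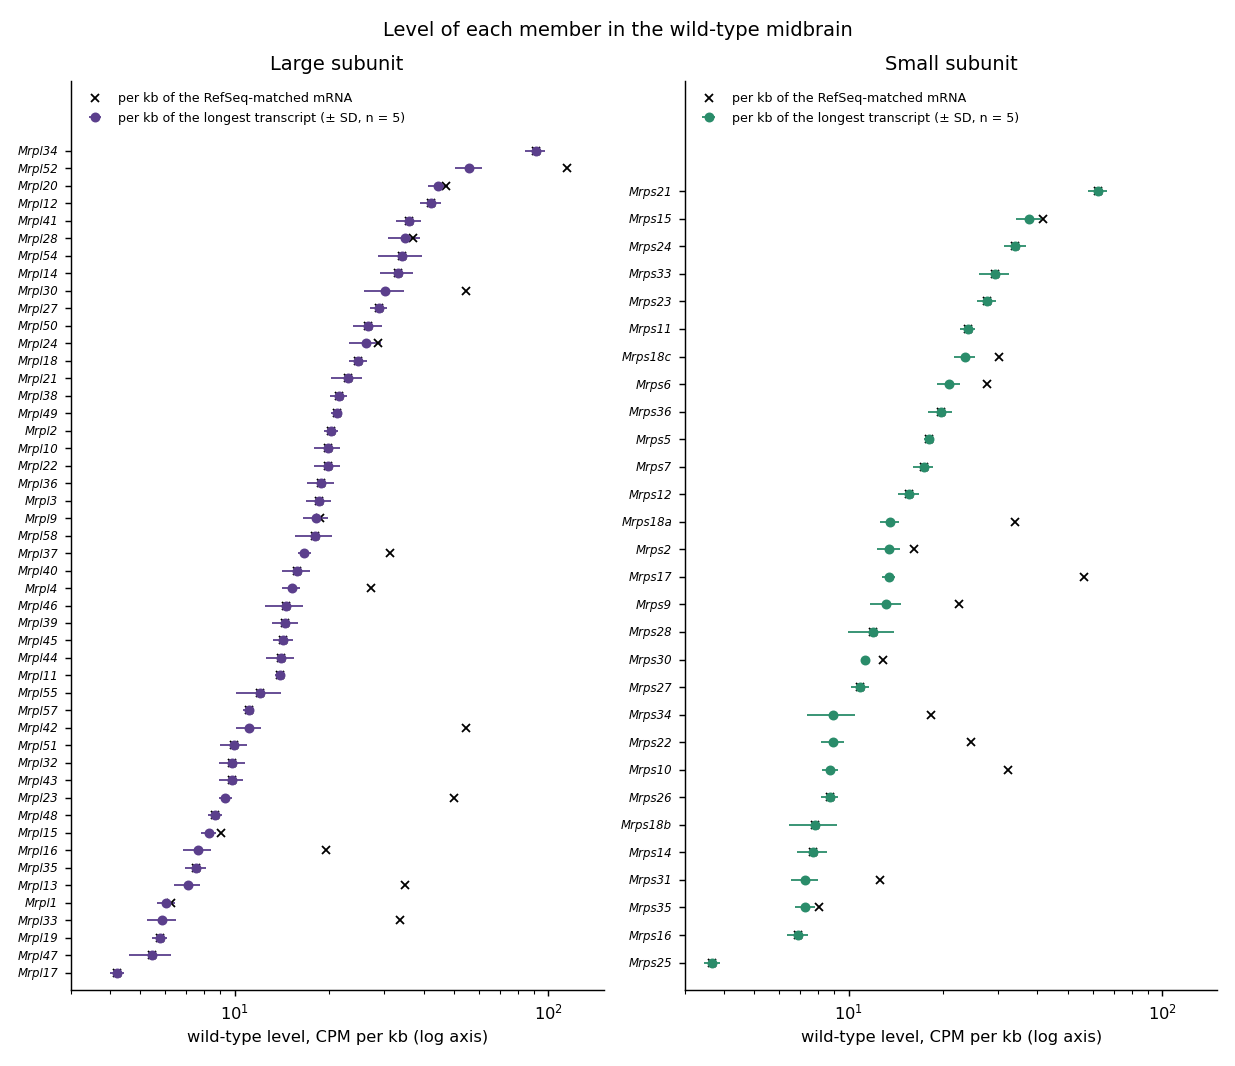
Level of each of the 77 measured members in the wild-type midbrain, in CPM per kb on a log axis, for the large (left) and the small subunit (right); points are means per kb of the longest transcript with SD over 5 libraries, and crosses are means per kb of the RefSeq-matched mRNA. Mrpl34 at 91.1 and Mrps21 at 62.5 head the points, and Mrpl17 at 4.21 and Mrps25 at 3.67 end them.

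The comparison of deletion with wild-type asked whether these genes differed in level without the element. In edgeR's quasi-likelihood test 0 of the 77 members passed an adjusted p of 0.05, as against 9 of 15288 genes overall (0.0589%), and the lowest adjusted p of a member was 0.0932, for Mrpl57. Most members had a slightly lower level in the deletion group all the same. The log2 fold change was below 0 for 68 of 77 (88.3%), against 50.7% of all genes, and its median was -0.125, against -0.002 over all genes. At an unadjusted p under 0.05, 21 members were lower and 0 higher (27.3% lower), where 4.92% of all genes were lower and 5.62% higher. In bulk tissue, less RNA per cell and fewer cells of a type with a high level cannot be told apart.

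In 10 members every deletion library lay below every wild-type library, against 1.26% of all genes, and 0 members showed the opposite, against 1.22%. These were Mrpl12, Mrpl13, Mrpl15, Mrpl34, Mrpl43, Mrpl48, Mrpl51, Mrpl52 and Mrpl57 of the large subunit and Mrps25 of the small. Summed over the members, the level averaged 2419 ± 58.2 CPM over the wild-type libraries and 2221 ± 87.8 CPM over the deletion libraries (SD, n = 5 each). The members share each library and its composition, so their common direction is not 77 independent results.

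**Figure D2:**
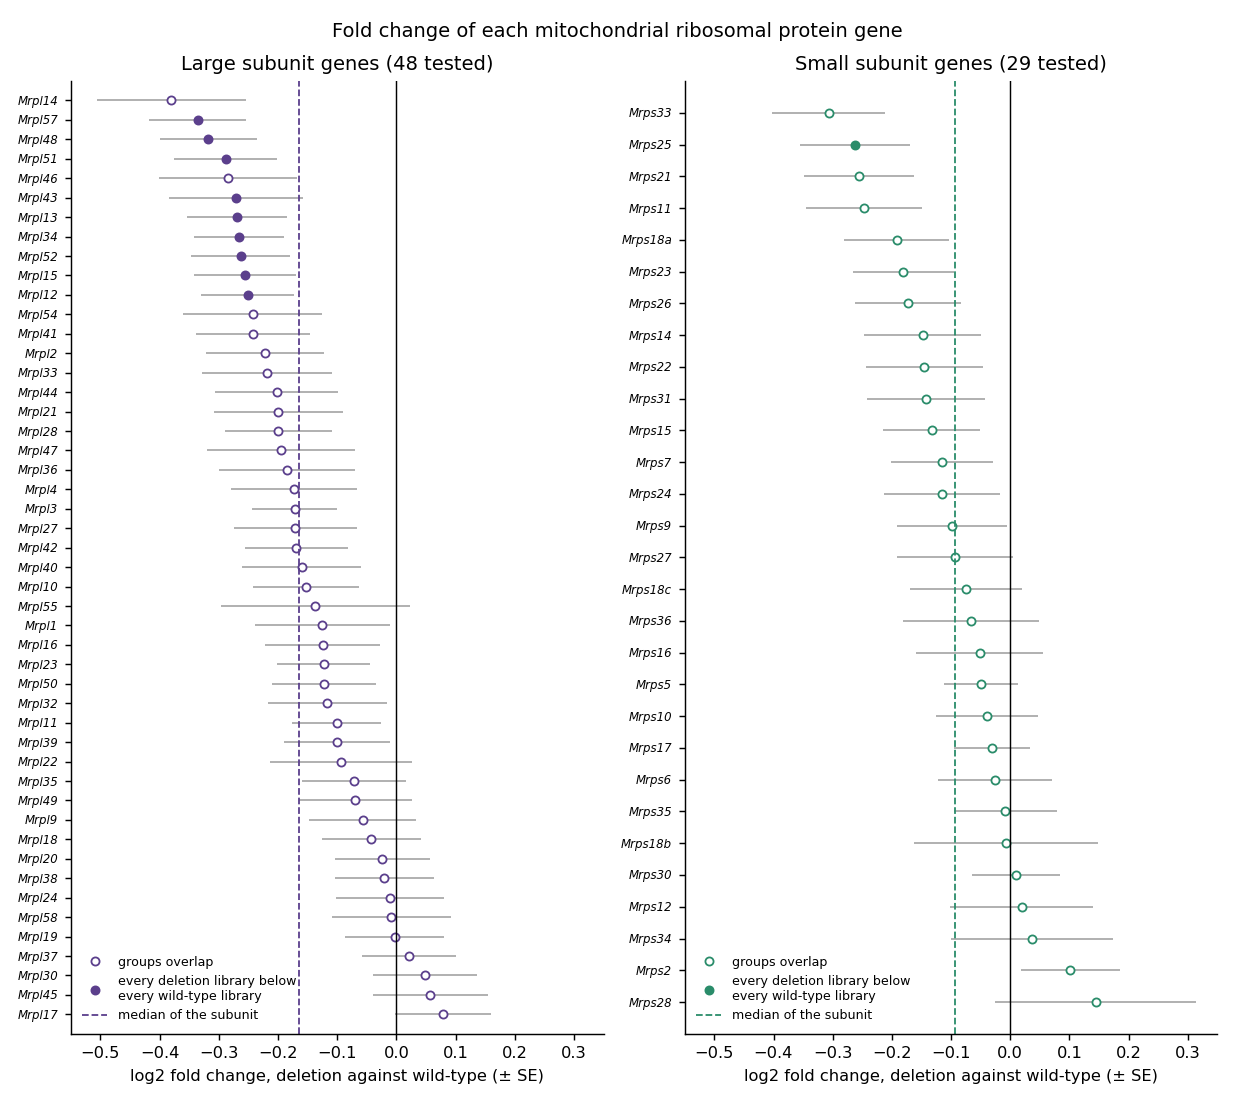
Log2 fold change of deletion against wild-type with its standard error for the 48 tested large subunit genes (left) and the 29 small subunit genes (right). Filled points mark genes whose deletion libraries all lie below all wild-type libraries, 9 on the left and 1 on the right, and dashed lines mark the medians of -0.165 and -0.094.

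Among large subunit genes, the smallest p belonged to Mrpl57, a mitochondria-specific protein. It was at 31.4, 33.4, 33.3, 31.0 and 30.5 CPM in the wild-type libraries and at 26.7, 26.0, 25.4, 25.2 and 23.1 CPM in the deletion libraries. The groups were well apart and each was narrow, with means of 31.9 ± 1.32 and 25.3 ± 1.36 CPM (SD, n = 5). Its log2 fold change was -0.34 (SE 0.08), with an adjusted p of 0.0932 in edgeR. Ska3, which shares its promoter region, had a log2 fold change of 0.16 (SE 0.22).

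Mrpl48, a protein of the central protuberance, was at 37.8, 34.1, 38.8, 38.0 and 36.2 CPM in the wild-type and at 28.3, 27.4, 33.4, 29.6 and 29.7 CPM in the deletion libraries. Deletion 4 came within 1 CPM of the lowest wild-type library and the other 4 lay well below it. The log2 fold change was -0.32 (SE 0.08, edgeR adjusted p = 0.115). Mrpl52, from the same region, was at 44.3 to 55.8 CPM in wild-type libraries and at 36.3 to 43.5 CPM in deletion ones, with a log2 fold change of -0.26. All 9 tested proteins of the central protuberance had a log2 fold change below 0, with a median of -0.16 and a range that ended at -0.01 with Mrpl58, a peptidyl-tRNA hydrolase that also frees stalled ribosomes.

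Mrpl51, a mitochondria-specific protein, was at 29.4, 33.1, 38.5, 36.1 and 33.8 CPM in the wild-type and at 26.2, 28.9, 27.9, 28.1 and 28.8 CPM in the deletion libraries. The gap between the groups was small, since wild-type 1 at 29.4 stood just above deletion 3 at 28.9. Its log2 fold change was -0.29 (SE 0.09, edgeR adjusted p = 0.183), while Ncapd2 across the promoter region had 0.15 (SE 0.11).

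Mrpl34 was at 60.5, 51.8, 58.6, 52.0 and 53.6 CPM in the wild-type and at 47.9, 41.1, 49.7, 44.9 and 46.2 CPM in the deletion libraries. Mrpl12 was at 53.4, 56.1, 54.0, 62.6 and 51.8 CPM and at 47.1, 44.5, 50.9, 41.5 and 49.5 CPM. In both genes deletion 4 was the highest deletion library and still lay below all wild-type libraries. The log2 fold changes were -0.27 (SE 0.08, edgeR adjusted p = 0.160) and -0.25 (SE 0.08, adjusted p = 0.195). All 5 stalk proteins, Mrpl1, Mrpl10, Mrpl11, Mrpl12 and Mrpl54, had a log2 fold change below 0, with a median of -0.15.

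Not every large subunit gene was lower. Around the exit of the tunnel through which the new protein leaves, 4 of 6 members were below 0, with a median of -0.05, and Mrpl17 in that group had the highest log2 fold change of the large subunit, at 0.08 (edgeR, SE 0.08). Mrpl17 was at 28.4 to 32.8 CPM in wild-type libraries and at 29.6 to 33.9 CPM in deletion ones, which overlap. Mrpl47 of the same region was at 15.3 to 21.5 and 13.5 to 18.8 CPM, also with overlap. Its log2 fold change was -0.195 (SE 0.13), the lowest of that region. Mrpl19, at 26.9 to 31.0 and 26.9 to 30.7 CPM, and Mrpl20, at 33.2 to 39.3 and 33.8 to 37.2 CPM, had log2 fold changes of -0.003 and -0.02, close to the median of all genes. Mrpl19 shares 36.0% of its exonic bases with another gene.

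**Figure D3:**
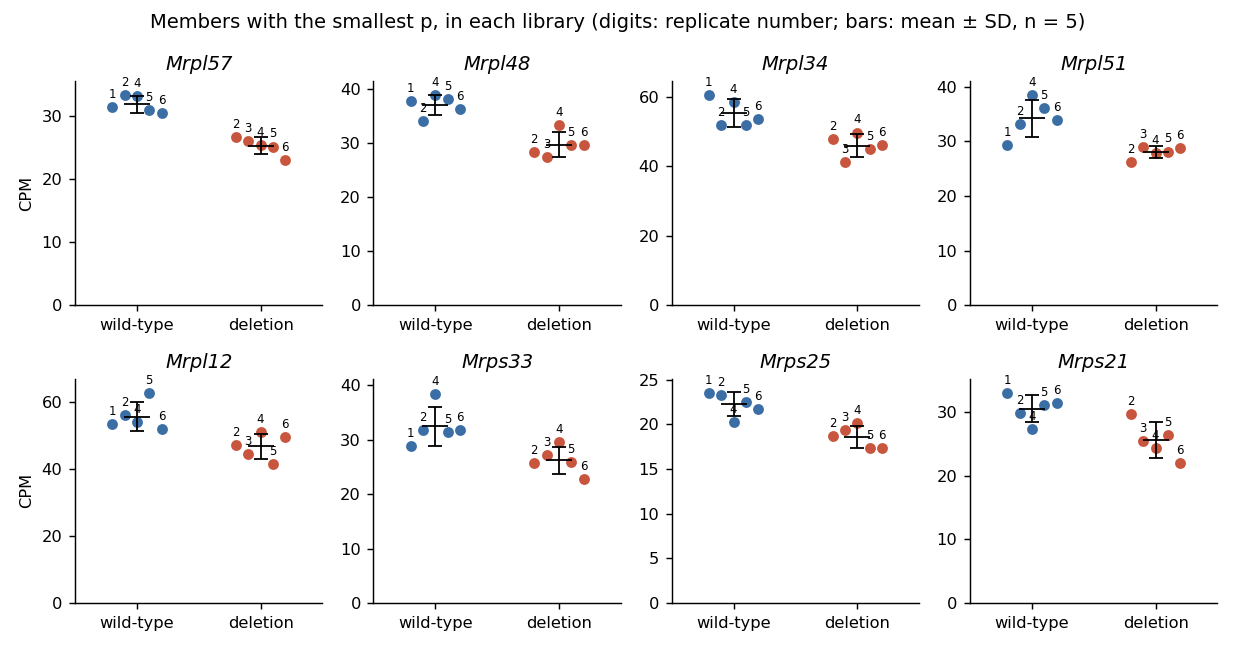
CPM of the 5 large and 3 small subunit genes with the smallest p, in each library; points are libraries with their replicate number, and bars are mean ± SD of 5 wild-type (left in each panel) and 5 deletion libraries (right). The groups do not overlap in Mrpl57, Mrpl48, Mrpl34, Mrpl51, Mrpl12 and Mrps25, and they overlap in Mrps33 and Mrps21.

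In the small subunit, the smallest p belonged to Mrps33, a mitochondria-specific protein of the head. It was at 28.8, 31.7, 38.5, 31.5 and 31.8 CPM in the wild-type and at 25.7, 27.2, 29.5, 25.9 and 22.8 CPM in the deletion libraries. Wild-type 1 lay below deletion 4, so the groups overlapped. The log2 fold change was -0.31 (SE 0.10, edgeR adjusted p = 0.195). All 8 tested proteins of the head were below 0, with a median of -0.11 and values up to -0.01 for Mrps35.

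Mrps25 was the only small subunit gene without overlap, at 20.2 to 23.6 CPM in wild-type libraries and at 17.3 to 20.1 CPM in deletion ones, with a log2 fold change of -0.26. It shares 69.8% of its exonic bases with Nr2c2, a nuclear receptor gene. Its count may thus hold reads of the other gene or lack shared reads that went uncounted. Mrps21, a counterpart of bacterial S21, was at 33.0, 29.8, 27.3, 31.1 and 31.3 CPM and at 29.7, 25.4, 24.3, 26.4 and 22.0 CPM, where deletion 2 lay among the wild-type libraries. Mrps11, a protein of the platform, was at 23.9 to 27.6 CPM in wild-type libraries and at 17.4 to 24.6 CPM in deletion ones. Their log2 fold changes were -0.26 and -0.25, with adjusted p of 0.283 and 0.354 in edgeR. Mrpl46, which starts beside Mrps11 on the other strand, had -0.28 (SE 0.12), and both genes share exonic bases, 7.97% of Mrps11 and 12.2% of Mrpl46.

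Most proteins of the body and platform differed little: 8 of 9 were below 0, but with a median of -0.05. Mrps15 and Mrps24, the latter a protein of the head, were among the highest small subunit genes per kb of the longest transcript. Their log2 fold changes were -0.13 and -0.11, with overlapping groups. Mrps16, a low one per length, had -0.05. Mrps28 was not in the body and platform group and is a counterpart of bacterial S1 in part of its sequence. It had the highest log2 fold change of all members at 0.14, but with a standard error of 0.17. It was at 9.0, 12.1, 9.01, 8.57 and 8.07 CPM in the wild-type and at 9.05, 13.6, 12.3, 9.96 and 6.62 CPM in the deletion libraries, so that the deletion group held both the highest and the lowest library.

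The symbols do not always give the place of a protein. The products of Mrps30 and Mrps18a sit in the large subunit in the known structures. Mrps18b and Mrps18c encode other proteins of the S18 kind in the small subunit. Mrps36 encodes an adaptor of the oxoglutarate dehydrogenase complex, and it was kept in the counts of small subunit and of mitochondria-specific genes. Mrps30 was at 41.6 to 43.5 CPM in wild-type libraries and at 37.5 to 45.5 CPM in deletion ones, with a log2 fold change of 0.01. Mrps18a was at 27.3 to 32.2 and 24.9 to 30.1 CPM, with -0.19 (SE 0.09). Mrps18b was the lowest of the measured members before division by length, at 8.43 CPM, and had -0.01. Mrps36 had -0.07, and Mrpl41, another mitochondria-specific large subunit protein, had -0.24 (SE 0.10, edgeR adjusted p = 0.353). None of these had groups without overlap.

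As a whole, the large subunit genes had the more negative median, -0.165 with 44 of 48 lower, against -0.094 with 24 of 29 lower for the small subunit genes. The mean log2 CPM of the large subunit genes, set to 0 at the wild-type mean, was between -0.046 and 0.042 in the wild-type libraries. It was -0.139, -0.143, -0.073, -0.171 and -0.229 in the deletion libraries, without overlap. The same mean for the small subunit was between -0.049 and 0.017 in the wild-type libraries and was -0.095, -0.049, 0.011, -0.127 and -0.209 in the deletion libraries. Deletion 4 stood inside the wild-type range there, and deletion 3 at its lower edge.

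The mean level of large minus small subunit genes was 0.18 ± 0.03 over wild-type and 0.12 ± 0.03 over deletion libraries (log2 CPM, SD, n = 5 each), a difference of -0.06. The libraries ran from 0.13 to 0.21 and from 0.09 to 0.16, and of the wild-type libraries only wild-type 2, at 0.13, lay within the range of the deletion libraries. This difference is a description and was not tested. With Mrps30 and Mrps18a counted in the large subunit the difference was -0.05 and the medians were -0.165 and -0.094, as before. By descent, the 46 members with a bacterial counterpart had a median of -0.12, with 10 (21.7%) lower at an unadjusted p under 0.05. The 31 mitochondria-specific members, Mrps36 among them, had a median of -0.16, with 11 (35.5%) lower. Of all genes, 4.92% were lower at that p. The sets by descent were not tested against each other. Members with an ETS motif had a median of -0.17 (24 genes) and those without one -0.12 (44 genes). The order was the opposite for NRF1, at -0.12 with and -0.13 without, and for YY1, at -0.11 with and -0.14 without, while members with any of the NRF1, ETS and YY1 motifs had -0.12 and those with none -0.13.

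**Figure D4:**
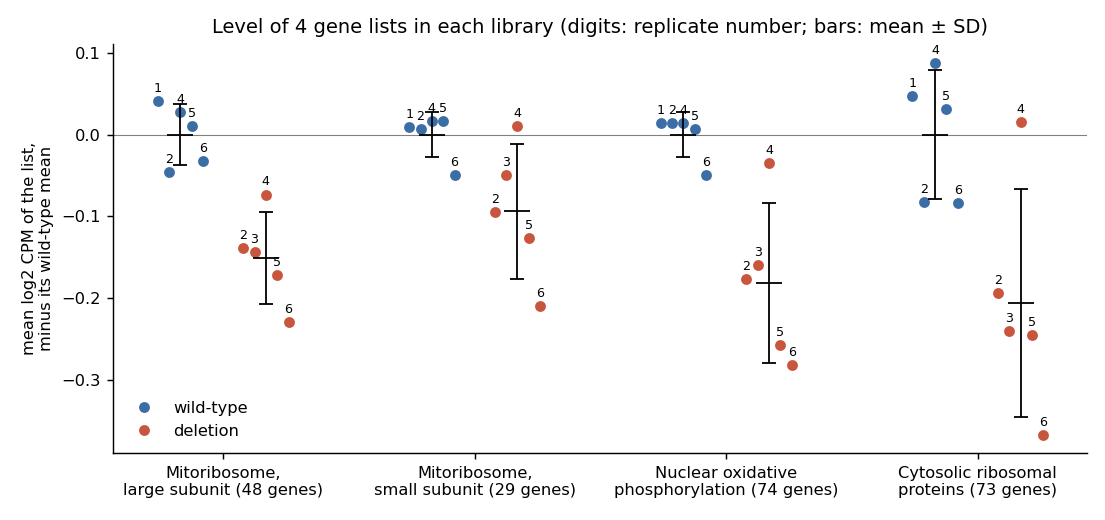
Mean log2 CPM of 4 gene lists in each library, minus the mean of the 5 wild-type libraries; points are libraries with their replicate number and bars are mean ± SD. For the large subunit the deletion libraries, from -0.229 to -0.073, lie below the wild-type range that ends at -0.046; in the other 3 lists deletion 4 lies within the wild-type range, and in all 4 deletion 4 is the highest and deletion 6 the lowest deletion library.

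Deletion 4 was the deletion library nearest to the wild-type group, with 47 of 77 members below their wild-type mean, against 61 to 70 in the other deletion libraries and 29 to 51 in the wild-type libraries. Without it, 6 members passed the test in edgeR, namely Mrpl48 (log2 fold change -0.36, adjusted p = 0.0166), Mrpl34 (-0.30, 0.0324), Mrpl57 (-0.34, 0.0342), Mrpl14 (-0.47, 0.0359), Mrpl12 (-0.28, 0.0430) and Mrps33 (-0.35, 0.0456). The values in parentheses are the log2 fold change and then the adjusted p. In that fit 1.43% of all genes were called lower and 0.888% higher. No label sets deletion 4 apart, but its marker sums did: neuronal markers summed to 7297 CPM, against 7797 to 8480 in the other deletion libraries, and red blood cell genes to 2846 CPM, against 2113 to 2199. The wild-type libraries had 7786 to 8106 and 1604 to 2430 CPM in these lists, so deletion 4 lay outside both ranges. Deletion 6, the lowest library for the members, had the highest neuronal sum, 8480 CPM, and the lowest progenitor sum, 981 CPM. Deletion 2 had the highest progenitor sum, 1403 CPM, with the members' mean log2 CPM at -0.122 from its wild-type mean. Wild-type 2 had 1050 CPM and -0.026. The part of these shifts in the calls was not tested. DESeq2 on all 10 libraries called 4 members lower, Mrpl57 (adjusted p = 0.00453), Mrpl48 (0.00948), Mrpl34 (0.0338) and Mrpl51 (0.0441), beside 1.26% lower and 1.11% higher among the 9953 genes to which it gave an adjusted p. Limma-voom called 0 members and 0 genes, with 21 members lower at an unadjusted p under 0.05. The share of all genes at that p was not counted for limma-voom.

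Transcript length moved with these values. The median RefSeq-matched mRNA length was 1280 bases for the members and 3173 for all tested genes, and 537 of the 660 tested genes with an mRNA under 1 kb had a log2 fold change below 0. The slope of log2 level on length, per doubling, was between -0.061 and -0.010 in the wild-type libraries and was 0.041, 0.034, -0.055, 0.049 and 0.104 in the deletion libraries, so that deletion 4 again resembled the wild-type. The 24 members whose mRNA is under 1 kb had a median of -0.13, against -0.15 for all 660 genes of that length. Members of 1 to 2 kb had -0.15 (29 genes) against -0.07 for 2646 genes, and members of 2 kb or more had -0.11 (24 genes, 20 lower) against 0.02 for 10526 genes. The median of the shortest members was thus no lower than that of all tested genes of that length, and the medians of the longer members were the more negative ones for their length. These differences were described and not tested. The members and the other gene lists described below were not left out of the classes over all genes.

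With each library's trend on longest transcript length removed, the median was -0.07 over all members, -0.08 in the large and -0.04 in the small subunit. In that fit 54 of 77 members were below 0. Mrpl57, Mrpl48 and Mrpl51 then had log2 fold changes of -0.31, -0.34 and -0.28, close to the values above, whereas Mrpl34 had -0.07, Mrpl12 -0.15 and Mrps33 -0.19. Mrps21 had -0.04, Mrps11 -0.12, Mrpl52 -0.11, Mrpl41 -0.08 and Mrpl14 -0.21, each also nearer to 0 than before, while Mrps25 had -0.32. Mrps28 had 0.29, and Mrpl20, Mrps18b and Mrps36 were above 0, at 0.14, 0.11 and 0.11. No member passed the test in that fit either, with 9 lower at an unadjusted p under 0.05. The share of all genes at that p was not counted for this fit, in which their median was 0.002. With the trend on RefSeq-matched mRNA length removed, 50 of 77 members were below 0, 34 of 48 large and 16 of 29 small subunit genes. In this mRNA length fit 9 members were lower and 1 higher at an unadjusted p under 0.05, and 0 passed. How much of the lower level goes with length in these libraries was not tested beyond these fits.

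**Figure D5:**
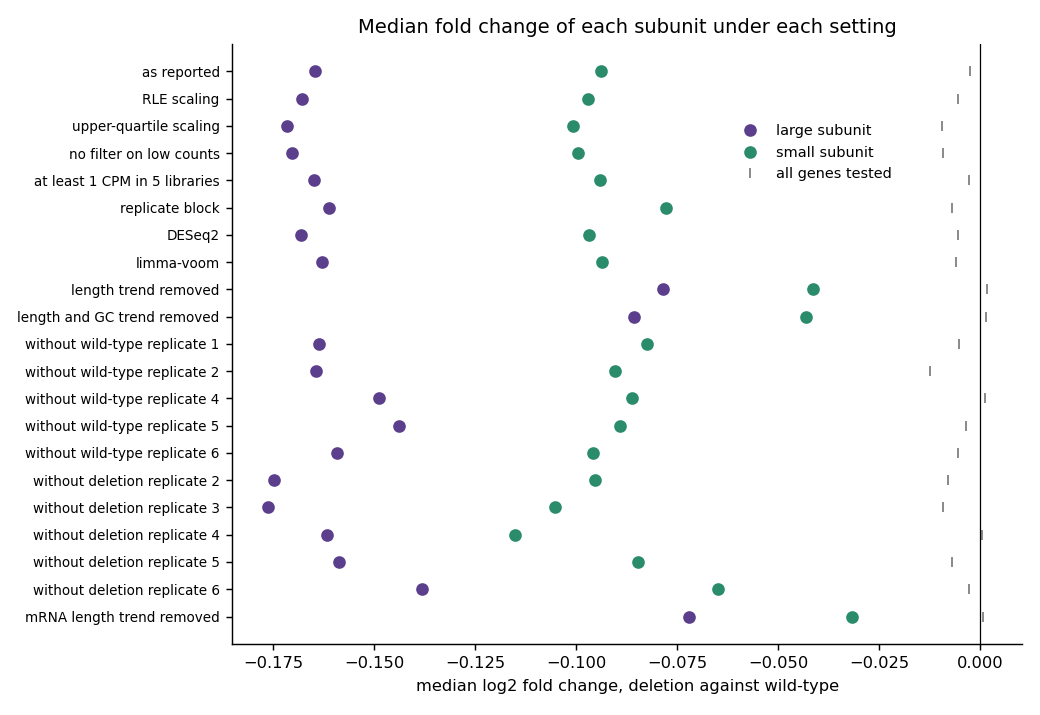
Median log2 fold change of the large and small subunit genes, and of all genes tested (tick marks), for the reported fit and each alternative. Both subunits stay below 0 in every setting drawn, with the large subunit the lower one; the points move nearest to 0 where a length trend is removed, to -0.072 and -0.032 with mRNA length.

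Genes that work with the mitochondrial ribosome were compared in the same fit. The 5 other proteins of the particle that carry different symbols were all lower, with a median of -0.15 and 0 past the test. Aurkaip1, a small subunit protein, was at 41.4 ± 3.82 and 34.2 ± 2.27 CPM, with a log2 fold change of -0.27 (SE 0.08, edgeR adjusted p = 0.188), and Dap3, a GTP-binding protein of the small subunit, had -0.15. Of 28 assembly factors 20 were lower and 0 passed, with a median of -0.06. Among them Gtpbp10, a GTPase of large subunit maturation, had -0.38 (SE 0.11, adjusted p = 0.166) and Ngrn, needed for the large subunit rRNA, had -0.18.

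Factors that act on the finished ribosome were compared as well, in the fit where 50.7% of all genes were below 0. The 12 tested translation factors had a median of -0.03 (8 lower, 0 passed), with -0.19 for the initiation factor Mtif2 and -0.26 for the release factor family member Mtrf1. The 17 mitochondrial aminoacyl-tRNA synthetases had a median of 0.00 (8 lower, 9 higher, 0 passed). Lars2, for leucine, averaged 964 ± 42.7 CPM over wild-type and 703 ± 139 CPM over deletion libraries, with a log2 fold change of -0.46 (SE 0.10, edgeR adjusted p = 0.0757). The next highest synthetase, Iars2, was at 44.4 CPM, so the count of Lars2 stands far outside the range of the list, and Aars2, for alanine, had 0.21.

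Of 16 genes for mitochondrial transcription and DNA maintenance, 12 were lower and 0 passed, with a median of -0.07, with -0.16 for the DNA-binding protein Ssbp1 and -0.22 for the RNA-binding protein Slirp. The 10 regulators of nuclear mitochondrial genes, which include the factors whose motifs were searched above, had a median of 0.05 with 6 higher and 0 passed. Nrf1 had 0.06, Gabpa -0.02 and Yy1 0.05. The coactivator genes Pprc1 and Ppargc1a, both known to raise mitochondrial gene expression, had the 2 smallest p of that list, with 0.32 (adjusted p = 0.160) and 0.30 (adjusted p = 0.344) in edgeR.

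The products of mitochondrial translation join nuclear-encoded subunits in the respiratory complexes. Of 74 genes for such subunits 70 were lower, with a median of -0.16, and 2 passed the test, Ndufc2 of complex I and Cox7c of cytochrome oxidase, each at -0.36 with an adjusted p of 0.0373 in edgeR. Of 73 cytosolic ribosomal protein genes 70 were lower, with a median of -0.20, and Rpl36 and Rpl21 passed (edgeR adjusted p = 0.0296). These are 4 of the 9 genes called among 15288 (0.0589%). No gene passed with limma-voom, with the length trend removed, or without wild-type 1, 5 or 6 or deletion 2 or 5, so these 4 calls were lost there. Both lists hold short genes too, with median longest transcripts of 1094 bases against 1884 for the tested members. The same direction thus held in these 2 lists, and no test set the mitochondrial ribosome apart from them.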

How the data were processed

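The authors deposited 1 table of gene counts, raw whole-number counts for each Entrez ID. HISAT2 did the alignment and featureCounts the counting, on mm39, per the submitters' processing notes. Versions, annotation, strand and the handling of reads with several matches were not given by any source used here, so overlapping genes cannot be told apart. RNA was extracted with a Direct-zol kit, per the labels' protocols. Every column matched a sample (0 left over). The 287 IDs without a RefSeq symbol held 0.0116% of counts. No pair of libraries looked like a duplicate, the closest pair having a chi-square of 5.81 per degree of freedom.

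The test was edgeR 4.0.16 in R 4.3.3 (filterByExpr, TMM scaling, robust quasi-likelihood F test, two-sided, group as the only term), with Benjamini-Hochberg adjustment over all 15288 genes tested and a threshold of 0.05. A standard error is the log2 fold change divided by the square root of F. CPM are TMM-scaled, with a prior count of 2 on the log2 scale. With 5 libraries per group, p-values set the group difference against the spread between these samples, which was estimated partly across genes. Lengths and neighbours are from GENCODE M21 (GRCm38), and names and promoters from RefSeq for GRCm38.p6; no coordinates were converted to mm39. Length trends were splines with 4 degrees of freedom, fitted to genes above a mean log2 CPM of 3 and used as offsets. Exonic overlap was read from the same annotation.

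Alternatives were RLE and upper-quartile scaling, other filters, the replicate number as a block, DESeq2 1.42.0, limma-voom (limma 3.58.1), length and GC trends and leaving out each library; the mRNA length trend and leaving out overlapping members were added after seeing the data. The fit was tested on simulated counts drawn for each gene on its own, without a length trend or a shift shared by genes. It therefore cannot speak to either. The members, lists, roles and tests were chosen with earlier results of these data known. Members named are, per subunit, the 5 smallest and 2 largest p, the 3 highest and 2 lowest levels per kb, the highest fold change, and Mrpl12, Mrpl58, Mrps30, Mrps18a, Mrps36 and Mrpl41; in other lists, those past the threshold and the 2 smallest p. Other members are named for a stated count, a shared promoter or a level and were chosen after their values were seen.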

Additional observations from a re-analysis of the deposited data

Results flagged for a closer look

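In groups of 5 libraries, 4 of 60 groups held 1 library far from the others by Dixon's test of the gap to the nearest library, which chance alone meets in about 1 of 20 groups. Mrps18a in deletion 3 was at 30.1 CPM, while the other deletion libraries lay between 24.9 and 26.3 CPM. Mrps28 in wild-type 2 was at 12.1 CPM, above 8.07 to 9.01 CPM in the other wild-type libraries. Mrps30 in deletion 6 was at 37.5 CPM, below 43.5 to 45.5 CPM in the other deletion libraries. The mean level of the small subunit genes in wild-type 6 was -0.049 from the wild-type mean, while the other 4 wild-type libraries lay between 0.007 and 0.017.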

How the results depend on the processing

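The number of members past the threshold was 4 with DESeq2 and 0 in each other fit of all libraries; leaving out 1 library gave 0 to 6, with 6 only without deletion 4. The number of all genes past the threshold was 9 as reported, 15 with upper-quartile scaling, 69 without a filter on low counts, 235 with DESeq2, 0 with limma-voom, 0 with the length trend removed, 17 with the length and GC trends removed, 0 with the mRNA length trend removed, and 0 to 357 when 1 library was left out, with 88 without wild-type 2 and 357 without deletion 4. Each of the 10 libraries, left out alone, moved that count by over 1.5 times. The median over all members was -0.071, -0.055 and -0.050 with the length, the length and GC, and the mRNA length trend removed; in the large subunit it was -0.078, -0.086 and -0.072, and in the small subunit -0.032 with mRNA length. The cause of these shifts was not tested. Without members that share over 10% of exonic bases the medians were -0.135, -0.160 and -0.099. Same-numbered libraries did not pair: the correlations of their deviations were -0.0086, 0.0153, -0.0624 and 0.0461 for numbers 2, 4, 5 and 6, and no library matched best with its own number. With the replicate number as a block, 0 members and 0 genes passed, and 12 members were lower at an unadjusted p under 0.05. The share of all genes at that p was not counted with the block. Depth limits the low members: Mrps18b rested on 121 counts in its lowest library.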
